A study of Mus musculus with 12 samples.

Results

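The TNF superfamily genes named by symbol were examined in cells of a mouse tracheal allograft, of native mouse trachea and of mouse spleen. A member is any gene whose symbol begins with Tnfsf or Tnfrsf followed by a digit. There are 32 such genes among the 31053 of the deposited gene table. They comprise 12 symbols of ligands, 11 of them protein-coding genes and 1 an antisense gene (Tnfsf13os), and 20 receptors. All 32 had at least 1 UMI (unique molecular identifier, a counted transcript) in each library, and 31 had 30 or more in at least 1. The member below that level was Tnfsf13, with 9, 9 and 6 UMIs.

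The series, whose title concerns mononuclear phagocytes and fibrosis in obliterative bronchiolitis after transplantation, holds 12 mouse samples, 4 from each of the 3 sources. They were profiled by single-cell sequencing of transcript 3' ends (10x Chromium, chemistry version 3). The cells of both tracheal sources carry the label of mesenchymal progenitors, and those of the third are splenocytes. Strain, age, sex, treatment and time after transplantation are not given in the sources used here. There is 1 matrix per source, and its cells could not be traced to the 4 samples, so each source is 1 pooled library. No difference was tested. Values in parentheses after a level or a ratio are exact 95% intervals for counting error, and the spread between animals is unknown.

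The allograft, native and spleen libraries held 3850, 4101 and 4532 cells after filtering, with medians of 4964, 6520 and 4409.5 UMIs per cell. Cells were placed in classes by counting detected markers, 6 per class, and 89.5%, 92.9% and 94.8% of them entered a class. The label of the tracheal cells did not match most of them: phagocytes (macrophages and monocytes) numbered 2286 of the allograft cells and 1859 of the native cells, and fibroblasts 44 and 934. T cells numbered 357, 195 and 1099, neutrophils 502, 564 and 264, and spleen B cells 2227. In the native library 70 of the T cells carried Rag1, Dntt or Ptcra, genes of developing T cells, against 2 in the allograft. Between 4 and 7 barcodes were shared by any 2 libraries. Levels are counts per 1000000 UMIs (CPM) summed over the cells named. In sums over all cells, more cells of a type and more RNA per cell cannot be told apart.

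Ligands of the TNF superfamily are mostly membrane proteins that act as trimers, some of them after release, and their receptors pass the signal through TRAF adaptors or death domains to NF-kappaB, MAP kinases or caspases. One set of pairs, with OX40, CD137, GITR, CD30 and their ligands, costimulates T cells. BAFF and APRIL keep B cells and plasma cells alive, TRAIL and TNF can kill cells, RANK ligand drives osteoclast formation, and TWEAK acts on stromal cells and epithelium through Fn14.

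**Figure D1:**
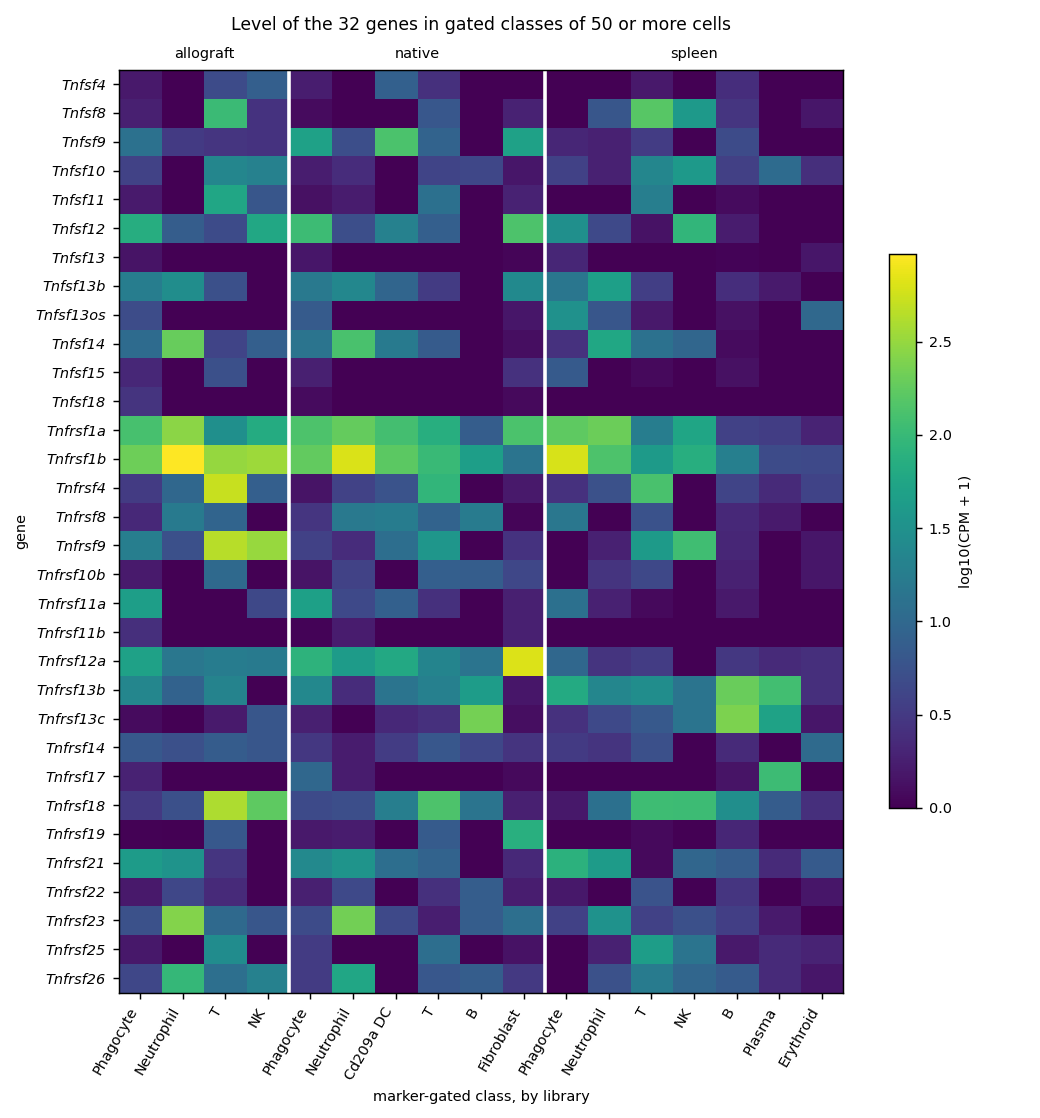
Levels of the 32 genes (rows, ligands above receptors) in each marker-gated class of 50 or more cells (columns, by library), as log10(CPM + 1) on a colour scale. Tnfrsf4, Tnfrsf9 and Tnfrsf18 stand out in T cells of the allograft, Tnfrsf12a in native fibroblasts, and Tnfrsf13b and Tnfrsf13c in spleen B cells.

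Of the ligands that costimulate T cells, Tnfsf9, the ligand of CD137, had the most UMIs in both tracheal libraries and a lower level in the allograft than in native trachea. Over all cells it stood at 11.6 CPM in the allograft (10.3 to 13.0), 47.5 in native trachea (45.1 to 50.1) and 2.76 in spleen (2.17 to 3.45). In native trachea its highest level in a class of 50 or more cells was 133 CPM (109 to 160), in dendritic cells marked by Cd209a. Fibroblasts and phagocytes followed, at 48.7 and 48.6 CPM. In the allograft phagocytes led the classes of that size, with 11.9 CPM, but only 16 dendritic cells marked by Cd209a were gated there. Tnfsf8, the ligand of CD30, was a T cell gene in the allograft and spleen. It was at 8.03, 0.83 and 31.0 CPM over all cells of allograft, native trachea and spleen, and T cells held 81.4% of its UMIs in the allograft and 93.3% in spleen. Within T cells it was concentrated in those with Cd4 and without Foxp3, at 436 CPM in the allograft (345 to 543, 50 cells) and 302 in spleen (274 to 332, 321 cells). Tnfsf4, the ligand of OX40, was sparse, with 38, 27 and 24 UMIs, or 1.5, 0.896 and 0.87 CPM. Of its 38 allograft UMIs, 15 lay in 6 of 20 mature dendritic cells, whose level was 75.1 CPM (42.1 to 124). In classes of 50 or more cells its highest levels were 6.92 CPM in allograft NK cells and 7.11 in native dendritic cells marked by Cd209a, from 4 and 6 UMIs. Tnfsf18, the ligand of GITR, was sparser still, with 39, 5 and 1 UMIs, or 1.53, 0.166 and 0.0363 CPM, and allograft phagocytes held 33 of the 39.

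The ligands of death and tissue receptors were spread over different classes. Tnfsf10 (TRAIL) was at 5.39, 1.23 and 6.71 CPM over all cells in the order allograft, native trachea and spleen. Among main classes of 50 or more cells its highest levels were 21.8 CPM in allograft T cells (15.2 to 30.3) and 38.2 in spleen NK cells (17.5 to 72.6). No native class of that size exceeded 3.25, but the 17 native endothelial cells held 18.9% of its 37 UMIs there. Tnfsf11 (RANK ligand) was at 5.55, 1.13 and 3.34 CPM and was highest in T cells of all 3 libraries, at 56.6, 11.6 and 17.4 CPM. Allograft T cells with Cd4 and without Foxp3 reached 177 CPM of it (121 to 249), against 33.6 in the same gate of the spleen (24.7 to 44.7). A further 19 of its allograft UMIs came from 2 of 23 chondrocyte-gated cells. Tnfsf12 (TWEAK) was at 58.1, 95.9 and 3.77 CPM. Native fibroblasts, at 137 CPM (130 to 144), and native phagocytes, at 106 (101 to 112), held 47.0% and 49.1% of its UMIs there. In spleen NK cells were highest, at 89.2 CPM (55.2 to 136), and in the allograft phagocytes were, at 70.5 (66.8 to 74.5).

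Tnfsf14 (LIGHT), which binds HVEM, was highest in neutrophils of all 3 libraries. Neutrophils reached 187 CPM of it in the allograft (160 to 217), 130 in native trachea (112 to 150) and 58.3 in spleen (45.1 to 74.1), while all cells together stood at 16.5, 14.1 and 5.15 CPM. Tnfsf15 (TL1A) had 30, 36 and 23 UMIs, or 1.18, 1.19 and 0.834 CPM, and no main class of 50 or more cells exceeded 5.97 CPM.

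Tnfsf13b (BAFF), the B cell survival factor, was at 15.2, 16.6 and 4.42 CPM over all cells. Neutrophils were highest in the allograft at 27.3 CPM (17.7 to 40.3) and in spleen at 46.8 (35.0 to 61.2). Native fibroblasts at 24.3 CPM (21.4 to 27.6) and native neutrophils at 22.5 (15.4 to 31.7) had overlapping intervals. Among allograft phagocytes, the 96 cells gated by Arg1, Nos2 and Cxcl9 stood at 54.1 CPM (40.7 to 70.6), whereas the other gates of 50 or more cells there lay between 3.41 and 16.5 CPM. Tnfsf13 (APRIL) and Tnfsf12 overlap the fusion gene Tnfsfm13 on the same strand and the antisense gene Tnfsf13os (chr11:69682138-69691141 in GENCODE M21). Of the 60-base words in the last 500 bases of Tnfsf13 transcripts, 100% also occurred in Tnfsfm13 transcripts, and of those of Tnfsf12 28.1% did. Tnfsfm13 had 80, 102 and 21 UMIs, so the few UMIs listed under Tnfsf13 are an uncertain measure of APRIL transcripts. Tnfsf13os, at 2.99, 3.22 and 3.73 CPM, was highest in phagocytes of each library, with 3.87, 6.08 and 30.9 CPM.

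Among the receptors, Tnfrsf4 (OX40), Tnfrsf9 (CD137) and Tnfrsf18 (GITR) were each highest in T cells of both tracheal libraries. Over all cells of allograft, native trachea and spleen, Tnfrsf4 was at 38.0, 5.28 and 26.9 CPM, Tnfrsf9 at 55.7, 4.38 and 9.35, and Tnfrsf18 at 38.9, 11.8 and 37.2. T cells held 86.2% of the Tnfrsf4 UMIs of the allograft, 50.1% of those of Tnfrsf9 and 64.4% of those of Tnfrsf18. Other classes held part of the rest: phagocytes had 23.4% of the Tnfrsf9 UMIs in the allograft and 27.3% in native trachea, and spleen B cells had 37.0% of the Tnfrsf18 UMIs. The 3 genes lie on chromosome 4, Tnfrsf4 (chr4:156013843-156016612) and Tnfrsf18 (chr4:156026164-156028895) as neighbours on the plus strand and Tnfrsf9 at chr4:150914562-150946102. Tnfrsf9 overlaps Camta1, and Tnfrsf18 overlaps Gm16008, on the opposite strand, and whether counting used the strand is not given in the sources used here.

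The 250 bases before the RefSeq starts of these 3 genes (2 starts for Tnfrsf9), and of the fibroblast receptor gene Tnfrsf12a for contrast, are shown because the first 3 are each highest in the same T cell gate, described next. They are from RefSeq on GRCm38.p6, on the strand of the gene, in lower case, with capitals at matches to GGG and CC separated by any 5 bases (a kappaB-type word) or TGANTCA (an AP-1-type word), searched on both strands. They cover chr4:156013445-156013694, chr4:156026072-156026321, chr4:150919905-150920154 and chr4:150927749-150927998 on the plus strand and chr17:23677450-23677699 on the minus strand.
Tnfrsf4: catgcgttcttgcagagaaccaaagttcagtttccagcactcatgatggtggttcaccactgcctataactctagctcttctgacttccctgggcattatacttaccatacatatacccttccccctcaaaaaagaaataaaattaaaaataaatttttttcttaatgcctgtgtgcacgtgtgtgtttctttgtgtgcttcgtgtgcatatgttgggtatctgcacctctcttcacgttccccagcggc
Tnfrsf18: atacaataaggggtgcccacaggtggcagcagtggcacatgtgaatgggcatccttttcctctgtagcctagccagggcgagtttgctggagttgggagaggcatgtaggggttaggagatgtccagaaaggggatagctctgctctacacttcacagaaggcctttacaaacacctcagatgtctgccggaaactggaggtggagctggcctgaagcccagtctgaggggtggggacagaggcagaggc
Tnfrsf9, first start: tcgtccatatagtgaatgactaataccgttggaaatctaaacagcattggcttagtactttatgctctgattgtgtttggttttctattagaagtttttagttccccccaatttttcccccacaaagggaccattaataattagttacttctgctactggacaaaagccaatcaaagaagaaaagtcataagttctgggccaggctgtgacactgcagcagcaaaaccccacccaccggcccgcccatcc
Tnfrsf9, second start: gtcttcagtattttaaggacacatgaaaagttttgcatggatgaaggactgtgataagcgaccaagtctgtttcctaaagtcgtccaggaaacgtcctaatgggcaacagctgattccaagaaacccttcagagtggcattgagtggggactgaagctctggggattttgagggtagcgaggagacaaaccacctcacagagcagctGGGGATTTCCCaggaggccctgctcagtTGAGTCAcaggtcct
Tnfrsf12a: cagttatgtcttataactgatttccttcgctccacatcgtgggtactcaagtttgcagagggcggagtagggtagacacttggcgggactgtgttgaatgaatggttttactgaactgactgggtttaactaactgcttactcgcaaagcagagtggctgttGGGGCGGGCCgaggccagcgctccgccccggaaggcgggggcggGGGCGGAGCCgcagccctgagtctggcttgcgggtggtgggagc
The second window of Tnfrsf9 held 2 overlapping kappaB-type matches and 1 AP-1-type match, and that of Tnfrsf12a 2 kappaB-type matches. Tnfrsf4, Tnfrsf18 and the first window of Tnfrsf9 held neither word. The kappaB-type word occurred in 45.8% of all 32851 windows of this length and in 15 of the 28 windows found for 24 members, the AP-1-type word in 6.75% and in 5 of 28. A match is a run of letters and not a shown binding site.

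Within T cells the Foxp3 gate, which marks regulatory T cells, was highest for all 3 receptors in both libraries with 50 or more such cells. Tnfrsf4 reached 1394 CPM in 61 Foxp3 cells of the allograft (1273 to 1523) and 792 in 82 of the spleen (699 to 892). Tnfrsf9 reached 1146 CPM (1037 to 1264) and 190 (146 to 242), and Tnfrsf18 764 (675 to 861) and 462 (393 to 541). T cells with Cd4 alone stood at 844, 287 and 486 CPM for Tnfrsf4, Tnfrsf9 and Tnfrsf18 in the allograft, and T cells with Cd8 at 88.1, 206 and 217. In spleen the same gates stood at 173, 59.4 and 115 CPM with Cd4 and at 6.29, 8.71 and 46.0 with Cd8. The native library held 4 Foxp3 cells, which are not compared. NK cells of the allograft held Tnfrsf9 at 327 CPM (282 to 377) and Tnfrsf18 at 171 (139 to 208), but Tnfrsf4 at 6.92, from 4 UMIs.

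After every cell was thinned to 1000 UMIs, 24.4% of allograft T cells had a Tnfrsf9 UMI (19.97 to 29.2), against 4.10% of native (1.79 to 7.92) and 2.83% of spleen T cells (1.93 to 3.99). In spleen B cells, which served as a class that should lack the gene, the share was 0.135% (0.0279 to 0.394). The medians were 3934, 4055, 4297 and 4723 UMIs per cell in these 4 classes before thinning. The T cell sets include cells carrying Rag1, Dntt or Ptcra, 2 in the allograft, 70 in native trachea and 7 in spleen. The T cell ratios below leave these out. The sets also hold 61, 4 and 82 Foxp3 cells, and the part of either difference in the shares was not tested.

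**Figure D2:**
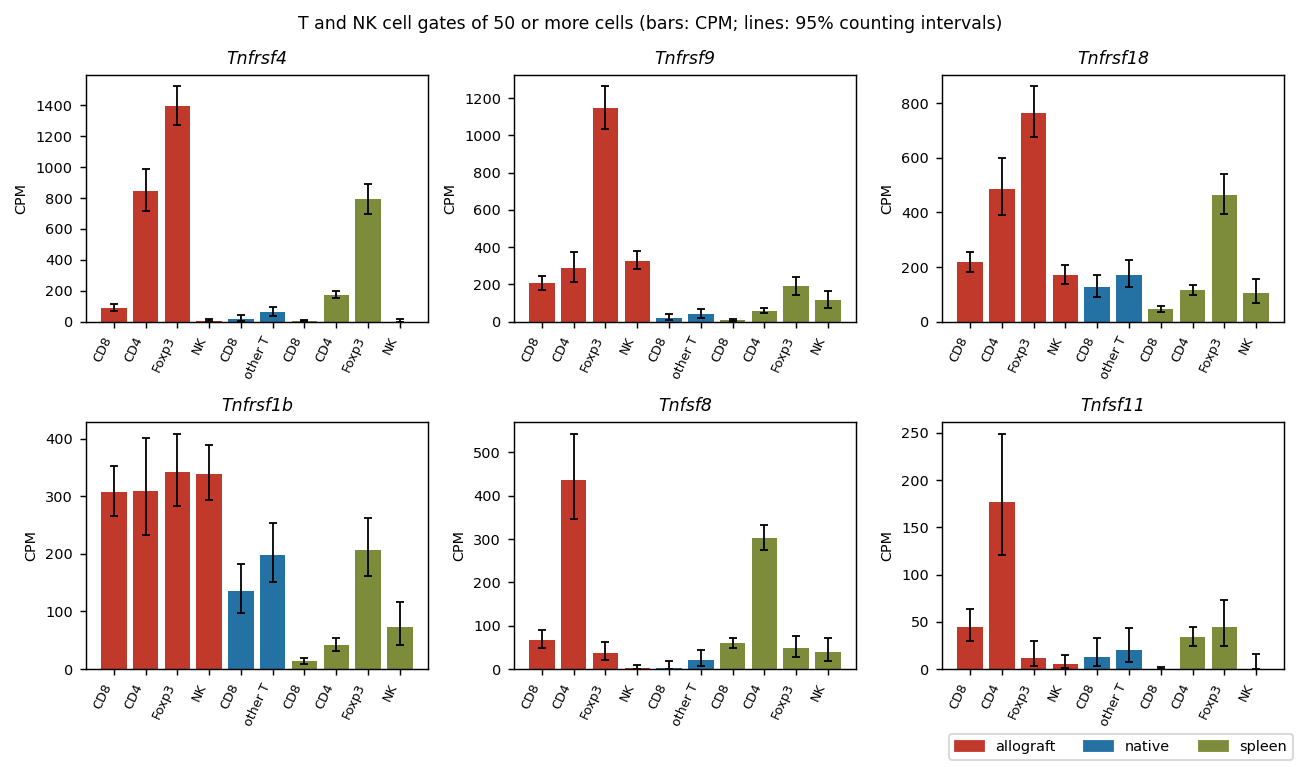
Levels in CPM (vertical axes) of 4 receptors and 2 ligands in T and NK cell gates of 50 or more cells (horizontal axes; the gate of other T cells is drawn for native trachea only), coloured by library, with bars for CPM and lines for 95% counting intervals. The allograft Foxp3 gate is highest for Tnfrsf4, Tnfrsf9 and Tnfrsf18, and the CD4 gate for Tnfsf8 and Tnfsf11, while Tnfrsf1b lies between 307 and 342 CPM in the 4 allograft gates drawn.

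The receptors of TNF itself were highest in neutrophils or phagocytes of every library but were read in other classes too. Tnfrsf1a (TNFR1, with a death domain) was at 119, 129.9 and 27.9 CPM over all cells of allograft, native trachea and spleen, and neutrophils were the highest main class at 281 (248 to 317), 186 (164 to 210) and 199 CPM (173 to 226). Native fibroblasts, at 133 CPM (126 to 141), held 33.7% of its native UMIs, beside phagocytes at 139 (132 to 145). Tnfrsf1b (TNFR2) was at 239.6, 136 and 74.2 CPM. Neutrophils led in both tracheal libraries, with 929 CPM (868 to 994) and 629.8 (589 to 672). In the allograft NK cells followed at 339 CPM (293 to 390), above phagocytes at 207 (200.1 to 213), whereas in spleen phagocytes led, with 613 (578 to 650), above neutrophils with 136. Within spleen phagocytes the gate of non-classical monocytes stood at 796 CPM (742 to 852) and that of classical monocytes at 357 (307 to 414).

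Of the other receptors of T cell ligands, Tnfrsf25 (the receptor of TL1A) was highest in T cells of each library, at 26.7, 10.8 and 43.3 CPM, with 2.71, 1.89 and 9.06 CPM over all cells. Tnfrsf8 (CD30) was sparse, at 2.75, 2.95 and 2.47 CPM, and its highest main classes were allograft neutrophils at 15.3, native Cd209a dendritic cells at 16.6 and spleen phagocytes at 14.1. Its Foxp3 gates stood at 28.5 CPM in the allograft (13.7 to 52.4) and 23.7 in spleen (10.2 to 46.7). Tnfrsf14 (HVEM) was at 5.47, 1.96 and 2.54 CPM, and its highest main classes were T cells at 6.22 (2.98 to 11.4) and 5.42 in the tracheal libraries, on 10 and 7 UMIs, and erythroid cells at 9.49 in spleen. Allograft phagocytes, at 5.65 CPM (4.62 to 6.84), held 75.5% of its UMIs there.

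Receptors and decoys of TRAIL were either sparse or read in neutrophils. Tnfrsf10b, the mouse death receptor of TRAIL, was at 2.16, 2.29 and 1.34 CPM and highest in T cells, at 9.32, 6.97 and 3.36. Tnfrsf23, a decoy receptor, was at 16.6, 16.7 and 3.52 CPM, and neutrophils stood at 259 CPM in the allograft (227 to 294), 216 in native trachea (193 to 242) and 31.8 in spleen (22.3 to 44.0). Its relative Tnfrsf26 was at 7.95, 5.11 and 6.45 CPM, with neutrophils highest in both tracheal libraries at 94.0 and 56.2 and T cells in spleen at 16.0. Tnfrsf22, another decoy, was at 0.826, 0.996 and 1.85 CPM and reached at most 6.49 CPM in a main class. Tnfrsf22 and Tnfrsf23 transcripts share 60-base words in their last 500 bases, 8.38% of those of Tnfrsf22 and 19.8% of those of Tnfrsf23, and all 3 genes overlap E230032D23Rik on the other strand, so their split is uncertain.

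Receptors known from bone, stroma and epithelium differed in the classes that held most of their UMIs. Tnfrsf11a (RANK), the receptor of RANK ligand, was at 35.6, 23.5 and 1.92 CPM. Phagocytes held 92.9% of its allograft UMIs and 90.1% of its native UMIs, at 45.3 and 47.8 CPM. Small sets of mature dendritic cells were higher, at 140.3 CPM in 20 allograft cells (93.2 to 203) and 140.7 in 16 spleen cells (70.2 to 252). Tnfrsf11b (osteoprotegerin, a secreted decoy of RANK ligand) was at 4.52, 0.365 and 0.0363 CPM, and 60 of its 115 allograft UMIs came from 23 chondrocyte-gated cells, 17 of which had one.

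Tnfrsf12a (Fn14), the receptor of TWEAK, was at 53.2, 264 and 2.72 CPM. Native fibroblasts held 80.2% of its native UMIs, at 645 CPM (629 to 661), against 81.9 in native phagocytes and 48.9 in allograft phagocytes. In the allograft phagocytes held 67.3% of its UMIs. The 44 allograft fibroblasts stood at 189 CPM (155 to 228) and the 23 chondrocyte-gated cells at 330.1 (274 to 394). Spleen phagocytes, the highest class there, stood at 8.68 CPM. Tnfrsf19 (TROY) was at 0.59, 25.4 and 0.58 CPM, and native fibroblasts held 96.3% of its native UMIs at 74.3 CPM (69.0 to 79.9). It had 15 UMIs in the allograft and 16 in spleen. Tnfrsf21 (death receptor 6) was at 34.7, 14.9 and 12.5 CPM, highest in phagocytes at 41.6 CPM in the allograft and 80.3 in spleen, and in neutrophils at 33.7 in native trachea.

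The receptors of BAFF and APRIL were read mainly in B cells, plasma cells and, for 2 of the 3, phagocytes. Tnfrsf13c (BAFF receptor) was at 1.85, 3.15 and 127.6 CPM over all cells, and within B cells at 201 CPM in the allograft (134 to 291, 33 cells), 221 in native trachea (171 to 280, 54 cells) and 241 in spleen (233 to 250, 2227 cells), with overlapping intervals. Tnfrsf13b (TACI) was at 19.6, 13.3 and 117 CPM. It stood at 193 CPM in spleen B cells (186 to 201) and 42.2 in native B cells (22.5 to 72.2), and was also read in phagocytes at 22.1, 23.0 and 65.1 CPM. Tnfrsf17 (BCMA) was at 1.42, 4.15 and 6.45 CPM. In spleen, plasma cells held 170 of its 178 UMIs, at 106 CPM (90.9 to 123).

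Phagocytes were split further by 3 markers each: resident (Lyve1, Cd163, Folr2), scar-associated (Gpnmb, Spp1, Mmp12), Arg1-Nos2-Cxcl9, classical monocyte (Ly6c2, Plac8, Ccr2) and non-classical monocyte (Ace, Treml4, Cd300e), the rest being called other. In native trachea, where 1 plasma cell was gated, phagocytes held 116 of the 125 Tnfrsf17 UMIs. Of these, 106 lay in 87 of the 959 phagocytes gated as resident macrophages, at 17.5 CPM (14.3 to 21.1), against 1.5 in native phagocytes of no sub-gate. In the 381 resident-gated cells without a UMI of any B cell, plasma cell or fibroblast marker the level was 19.2 CPM (13.8 to 26.0). The 61 resident-gated allograft cells had 2 UMIs.

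**Figure D3:**
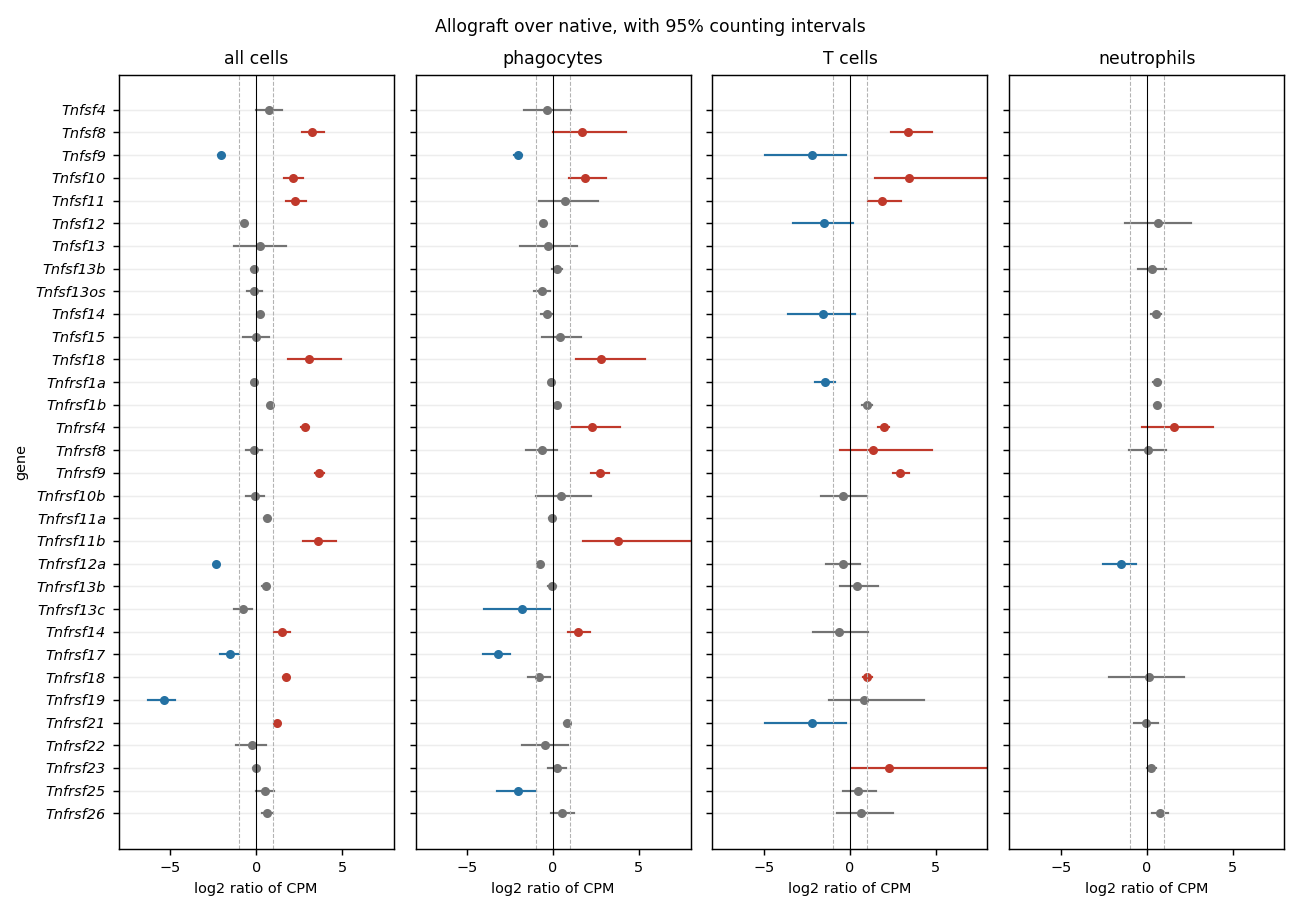
Ratio of CPM in the allograft over native trachea on a log2 axis (horizontal) for each gene with 10 or more UMIs (vertical), in all cells, phagocytes, T cells and neutrophils, with lines for 95% counting intervals. Dashed lines mark 2-fold, red and blue points lie past it, and Tnfrsf9 lies past it to the right in the first 3 panels.

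The allograft was then set against native trachea over all cells, to give the difference in each gene before cell types are separated. A gene counts as higher or lower here at a ratio of 2-fold or more with 10 or more UMIs in both sets together, and ratios have 0.5 UMI added to each sum. Of the 32 members, 10 were higher in the allograft and 4 lower, where 7.07% of the 16456 genes measured were higher and 19.5% lower. Tnfrsf9 was 12.7-fold higher (10.6 to 15.3), Tnfsf8 9.51-fold (6.37 to 15.3), Tnfrsf4 7.19-fold (6.09 to 8.58) and Tnfrsf18 3.29-fold (2.91 to 3.72). Tnfrsf11b, Tnfsf18, Tnfsf11, Tnfsf10, Tnfrsf14 and Tnfrsf21 were the others, at 11.9, 8.51, 4.86, 4.35, 2.78 and 2.33-fold. With the mean of per-cell CPM the log2 ratio of Tnfrsf21 was 0.82, under 2-fold. Those lower were Tnfrsf19, 41.6-fold (25.9 to 77.1), Tnfrsf12a, 4.97-fold (4.70 to 5.27), Tnfsf9, 4.09-fold (3.61 to 4.66), and Tnfrsf17, 2.90-fold. Allograft and native libraries differ in the share of fibroblasts, at 44 of 3850 and 934 of 4101 cells, and the part of this in the fibroblast receptors was not tested.

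The phagocyte class had a different make-up in each library: 61 of 2286 allograft and 959 of 1859 native phagocytes were gated as resident, 438 and 39 as scar-associated, and 96 allograft and no native cells by Arg1, Nos2 and Cxcl9. The part of this in the ratios over the whole class was not tested, and values within gates follow. Within phagocytes, 31 members had enough UMIs, and 7 were higher and 4 lower in the allograft (6.83% and 10.1% of all genes measured). Tnfrsf9 was 6.51-fold higher (4.67 to 9.58), Tnfrsf4 4.80-fold, Tnfsf10 3.65-fold and Tnfrsf14 2.75-fold. Tnfrsf4 was sparse there: allograft phagocytes held 4.45% of its 967 UMIs and T cells 86.2%, and after thinning 0.351% of these phagocytes had one. T cell markers summed to 12.4 and 11.6 CPM in allograft and native phagocytes, and the part of T cell RNA in this ratio was not tested. Tnfrsf11b (28 against 1 UMIs, 13.6-fold, 3.32 to 821), Tnfsf18 (33 against 3) and Tnfsf8 (15 against 3) rest on few UMIs. Chondrocyte markers summed to 36.0 and 2.03 CPM in allograft and native phagocytes. The part of chondrocyte RNA in the Tnfrsf11b ratio was not tested. Tnfsf9 was 4.06-fold lower in the allograft (3.49 to 4.76) and Tnfrsf17 9.28-fold lower (5.69 to 16.9), with Tnfrsf25 4.05-fold and Tnfrsf13c 3.56-fold. The ratios of Tnfrsf25 and Tnfrsf13c rest on few UMIs. Native phagocytes held 30 Tnfrsf25 UMIs and 11.6% of the 95 native Tnfrsf13c UMIs, and B cells held 71.6% of the latter. Within the resident gate the Tnfrsf17 ratio was 2.06-fold lower, on 2 against 106 UMIs, with an interval that spanned 1 (0.691 to 21.4). The median log2 ratio of the measured members was -0.06, beside 0.08 for all genes.

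**Figure D4:**
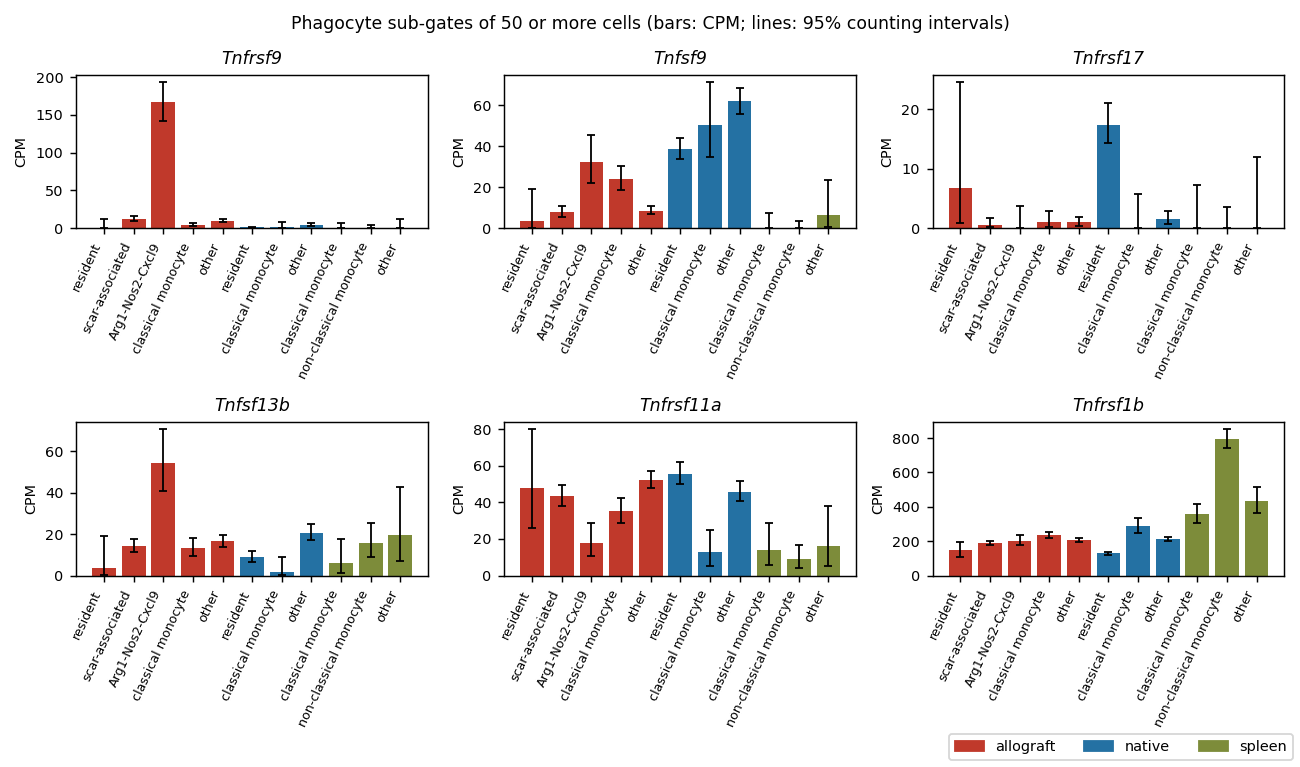
Levels in CPM (vertical axes) of 6 genes in phagocyte gates of 50 or more cells (horizontal axes), coloured by library, with bars for CPM and lines for 95% counting intervals. Tnfrsf9 and Tnfsf13b are highest in the Arg1-Nos2-Cxcl9 gate, Tnfrsf17 in native resident-gated cells and Tnfrsf1b in spleen non-classical monocytes.

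The Tnfrsf9 UMIs of allograft phagocytes were concentrated in the gate defined by Arg1, Nos2 and Cxcl9. Its 96 cells stood at 166 CPM (142 to 194), from 166 of the 331 UMIs of the class in 25 cells, and the highest cell held 28. In classical monocytes the ratio rested on 13 against 1 UMIs and was within 2-fold, at 1.92 (0.418 to 118). The other allograft gates stood at 12.8 CPM in scar-associated, 9.48 in other and 4.39 in classical monocyte cells, with no UMI in resident-gated cells. The native phagocyte class as a whole stood at 2.70 CPM, from 36 UMIs, and its resident-gated cells at 0.988. The 431 spleen phagocytes had no UMI. Cells of the gate held 7 UMIs of the 6 T cell markers and 25 of the NK markers, and in its 79 cells without any of these Tnfrsf9 was at 186 CPM (157 to 218). The gate's median depth was 10226 UMIs, against 7038.5 for all allograft phagocytes.

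The ligand Tnfsf9 was higher in native than in allograft phagocytes. It stood at 61.8 CPM in other, 50.6 in classical monocyte and 38.7 in resident-gated native phagocytes, against 32.1 in the Arg1-Nos2-Cxcl9 gate, 24.0 in classical monocyte, 8.6 in other and 7.78 in scar-associated allograft phagocytes. In the resident gate it had 1 UMI in the allograft and 235 in native trachea, a ratio 7.58-fold lower (2.02 to 450). In native phagocytes of no sub-gate and without a fibroblast marker UMI it was at 65.5 CPM.

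Within T cells, without those carrying Rag1, Dntt or Ptcra, 355 allograft and 125 native cells were compared. Of 21 members measured, 8 were higher and 5 lower in the allograft (10.4% and 9.2% of all genes measured). Tnfrsf9 stood at 443 against 58.3 CPM, 7.52-fold higher (5.59 to 10.6), Tnfrsf4 at 521 against 134, 3.87-fold (3.15 to 4.83), and Tnfrsf18 at 396 against 196, 2.01-fold (1.68 to 2.43). Tnfrsf18 was the nearest to the 2-fold limit, and its log2 ratio lay between 0.79 with a gate of 4 markers and 1.02 with no cell filter over the alternatives run, so the call depends on the setting. The ligands Tnfsf8, at 104 against 9.48 CPM, and Tnfsf11 were 10.2-fold (5.19 to 27.6) and 3.67-fold higher. Tnfsf10 (35 against 1 UMIs), Tnfrsf23 (15 against 1) and Tnfrsf8 (2.49-fold, 0.678 to 27.4) rest on few. Tnfrsf1a was lower, at 29.4 against 81.3 CPM, 2.76-fold (1.86 to 4.15). Phagocyte markers summed to 1502 and 1696 CPM in the native gates of Cd8 and other T cells, against 148 to 288 in the 4 allograft gates. In cells without a UMI of them, Tnfrsf1a was at 26.3 CPM in 80 allograft (12.0 to 49.995) and 64.0 in 30 native Cd8 cells (27.6 to 126), and at 73.9 (43.1 to 118) and 65.6 (28.3 to 129) in other T cells, with overlapping intervals in both gates. Tnfrsf21 and Tnfsf9 were lower on 3 against 7 UMIs each, and the intervals of Tnfsf14 and Tnfsf12 spanned 1.

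The allograft T cell set held 61 Foxp3 cells and the native set 4, so the same genes were also read in T cells with Cd8. There 11 members were measured, 6 higher and 2 lower (12.7% and 10.8% of genes). Tnfrsf9 was 9.88-fold higher in the allograft (4.77 to 29.6), at 206 against 19.3 CPM, and Tnfrsf4 4.24-fold and Tnfrsf1b 2.25-fold higher. In the 80 allograft cells of this gate without a phagocyte marker UMI, Tnfrsf9 was at 167 CPM (126 to 216) and Tnfrsf4 at 46.8 (26.8 to 76.0), against 88.1 in all 134. In the 30 such native cells Tnfrsf9 was at 32 CPM (8.71 to 81.9) and Tnfrsf4 at 40 (13.0 to 93.3), so the Tnfrsf4 intervals overlapped and those of Tnfrsf9 did not.

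Against spleen T cells, which have a larger sample of each gate, 22 members were measured, 9 higher and 3 lower in the allograft (16.6% and 13.6% of genes; 12.7% and 17.9% under median-of-ratios scaling, with the member counts still 9 and 3). Tnfrsf9 was 10.7-fold higher (9.16 to 12.6), Tnfrsf1b, at 318 against 40.9 CPM, 7.75-fold (6.59 to 9.18), Tnfrsf4 3.99-fold (3.6 to 4.42) and Tnfrsf18 3.58-fold (3.19 to 4.02). Tnfrsf12a, Tnfrsf23, Tnfsf11 and Tnfrsf10b were 7.21, 3.34, 3.23 and 2.94-fold higher, and Tnfrsf19 had 9 against 1 UMIs. In the whole T cell classes Tnfrsf12a stood at 16.8 CPM in the allograft and 2.37 in spleen. Fibroblast markers there summed to 125 and 0.396 CPM, and phagocyte markers to 223 and 24.7. Of the allograft fibroblast marker UMIs, 183 lay in 9 Cd8 cells. The part of such RNA in these ratios was not tested. Tnfrsf13c, Tnfsf14 and Tnfrsf22 were lower, 6.29, 3.46 and 3.13-fold, the first on 1 against 29 UMIs.

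Gates of 1 kind of lymphocyte were compared as well. In T cells with Cd8, 6 of 17 members were higher and 3 lower (21.3% and 11.6% of genes), Tnfrsf9 23.1-fold (14.4 to 41.2), Tnfrsf1b 22.3-fold (15.2 to 35.0) and Tnfrsf4 13.6-fold (7.56 to 27.9). Phagocyte markers summed to 148 CPM in these allograft cells and 17.9 in those of the spleen. In the 80 allograft cells without a UMI of them, Tnfrsf9, Tnfrsf1b and Tnfrsf4 stood at 167, 281 and 46.8 CPM. All 134 stood at 206, 307 and 88.1. The part of phagocyte RNA in these ratios was not tested. Tnfsf11 had 28 UMIs in 134 allograft cells of this gate and none in 371 of the spleen, at least 30.3-fold higher against 3 UMIs. In Foxp3 cells 2 of 11 members were higher and 2 lower (14.6% and 13% of genes), with Tnfrsf9 6-fold higher (4.63 to 7.99). In NK cells 2 of 8 were higher and 2 lower (12.8% and 16.2% of genes), Tnfrsf1b 4.57-fold (2.86 to 8.22) and Tnfrsf9 2.80-fold (1.90 to 4.44).

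Neutrophils of the allograft and native trachea differed in few members. Of 12 measured, 1 was higher, Tnfrsf4 on 8 against 4 UMIs, and 1 lower, Tnfrsf12a at 14.2 against 41.4 CPM, 2.83-fold (1.58 to 5.80). Among all genes 5.97% were higher and 8.42% lower, or 4.32% and 10.4% under median-of-ratios scaling. Against spleen neutrophils 6 of 13 members were higher in the allograft and 2 lower (17% and 28.9% of genes). Tnfrsf26 was 19.5-fold higher (8.78 to 67.3), Tnfrsf23 8.06-fold (5.72 to 11.9), Tnfrsf1b 6.82-fold (5.75 to 8.17) and Tnfsf14 3.19-fold (2.40 to 4.33).

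Ligands were then paired with their known receptors, 18 pairs in all. Both genes had 30 or more UMIs in 15 pairs of the allograft and in 11 of each other library. Among main classes of 50 or more cells, the class highest for the ligand was also highest for the receptor in 3 allograft pairs, 2 native pairs and no spleen pair. TWEAK and Fn14 were among them in both tracheal libraries, with allograft phagocytes at 70.5 and 48.9 CPM and native fibroblasts at 137 and 645, although the smaller allograft sets of fibroblasts and chondrocyte-gated cells were higher for Fn14, as given above. TRAIL with Tnfrsf10b, and TL1A with Tnfrsf25, were the other allograft pairs, both in T cells. TL1A rested there on 7 UMIs, and phagocytes held 70% of its 30. Tnfrsf10b had 15 UMIs in allograft T cells. TRAIL stood there at 21.8 CPM (15.2 to 30.3), overlapping NK cells at 19.0 (9.50 to 34.0), and phagocytes held 38.7% of its UMIs. The native pair of TRAIL with Tnfrsf22, in B cells, rested on 1 and 2 UMIs. For CD137 in the allograft, among classes of 50 or more cells, the ligand was highest in phagocytes and the receptor in T cells. Among the same classes RANK ligand was highest in T cells and RANK in phagocytes of all 3 libraries. The few mature dendritic cells of allograft and spleen were higher for RANK. CD30 ligand was highest in T cells of all 3 libraries, and CD30 in another of these classes. The Foxp3 T cell gates of allograft and spleen stood above that class for CD30, as given above, with overlapping intervals. In the allograft the CD30 intervals of neutrophils (8.36 to 25.7) and all T cells (4.30 to 13.8) also overlapped. In native trachea CD30 ligand had 25 UMIs, under the limit of 30 for a counted pair. Fibroblasts held 36% of these 25 UMIs and T cells 28%. A pair of levels shows no contact between cells.

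The rest of the pathway was read from lists of 7 ligands and 8 receptors with other symbols and 28 signalling genes. Over all cells, 3 ligands were higher in the allograft and 1 lower of 7 measured, among them Fasl (Fas ligand) at 9.56 against 0.531 CPM, 17.5-fold higher (10.9 to 32), and Eda, 14.0-fold lower (5.84 to 58.8). Of 7 receptors measured none was higher and 3 were lower, including Fas at 40.3 against 86.6 CPM, 2.15-fold. Of all genes 7.07% were higher and 19.5% lower. No signalling gene of 28 passed 2-fold, and their median log2 ratio was 0.06. Within phagocytes Birc3, an inhibitor of apoptosis, was the 1 signalling gene past 2-fold, at 82.1 against 172 CPM.

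Tnf itself was 5.03-fold higher in allograft than in native neutrophils (4.36 to 5.83), at 876 against 174 CPM, 1 of 2 ligands measured there. In T cells, Fasl was 9.89-fold higher than in native trachea, and of 28 signalling genes 2 were higher, Traf3 2.70-fold and Tnfaip3, an inhibitor of NF-kappaB signalling, 2.13-fold at 678 against 318 CPM, a share not above the 10.4% of all genes that were higher. Against spleen T cells 14 of the 28 were higher and 1 lower, where 16.6% and 13.6% of all genes were, and the median of their log2 ratios was 0.89 beside 0.06 for all genes. Tnfaip3 was 12.0-fold higher (10.6 to 13.8), Nfkb2 5.76-fold, Nfkb1 3.31-fold and Relb 2.96-fold, the last 3 being NF-kappaB subunits, and the adaptor Traf5 was 3.91-fold lower. Of 6 ligands measured 3 were higher, with Fasl 6.10-fold and Tnf 3.37-fold, and 3 lower, Cd40lg 4.49-fold, Ltb 2.83-fold and Lta 2.79-fold.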

How the data were processed

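Droplet 3' single-cell libraries of allograft, native trachea and spleen cells were deposited by the authors as 3 matrices of UMI counts per gene and cell, made with Cell Ranger 3.1.0 per the file headers and on mm10 per the submitters' processing notes. The annotation release and the strand setting are not given in the sources used here. Cells with 500 or more genes and at most 20% mitochondrial UMIs were kept, and doublets were removed with scrublet in scanpy 1.11.5, which marked 0.976%, 1.23% and 1.01% of barcodes against 3.69%, 3.70% and 3.88% expected. A cell took the class with the most of 6 markers detected, with 3 or more and no tie. Counts were summed per library and class and scaled to CPM (Python 3.11.15, numpy 2.4.6, scipy 1.17.1, pandas 2.3.3, matplotlib 3.10.9). Totals were 25417332, 30131447 and 27579152 UMIs. Levels have exact Poisson, shares Clopper-Pearson and ratios conditional binomial 95% intervals, which cover counting error only. The ratio procedure was tested on simulated Poisson counts with known folds. Those counts hold no spread between cells or animals, so that check says nothing about such spread. With 1 pooled library per source no test between conditions was made. Every member with 30 or more UMIs in a library is named with its levels. Gene positions are those of GENCODE M21 and promoter windows those of RefSeq on GRCm38.p6, found for 24 of 32 members. Comparisons within CD8, Foxp3, NK and phagocyte gates, and of allograft with spleen neutrophils, were added after the data were seen. Members and lists were chosen with earlier results of these data known. Alternatives covered the cell filter, doublets, scaling, totals, per-cell means, the UMI minimum, the gate and the thinning.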

Additional observations from a re-analysis of the deposited data

How the results depend on the processing

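None of the recomputed ratios of members past 2-fold reversed under the alternatives run: 455 stayed within the counting interval and 15 moved outside it. A changed UMI minimum leaves a ratio as it is, so the entries for those settings are among the 455 by construction. Ratios below the UMI minimum of a setting were not counted. The number of members lower in T cells of the allograft than of native trachea, 5, was 1 with a minimum of 30 UMIs, 8 with no minimum and 1 with a gate of 4 markers. The number higher in allograft than native neutrophils, 1, was 2 with the strict cell filter and with per-cell means, 0 with 30 UMIs, 4 with no minimum, 3 with a gate of 2 markers and 0 with a gate of 4, and the number lower, 1, was 4 with no minimum. The number lower in allograft than spleen T cells, 3, was 5 with per-cell means. The cause of these moves was not tested. Median-of-ratios scaling shifted log2 ratios by -0.11 in phagocytes, -0.15 in neutrophils and -0.21 in T cells against spleen. The highest class was the same under a gate of 4 markers in 74 of 82 pairs of member and library. Levels in cells without other classes' markers were an alternative chosen after seeing the data. In spleen NK cells without T cell markers Tnfrsf9 was at 61.2 CPM, from 6 UMIs, against 115 in all. In the 335 allograft cells outside every class Tnfrsf9 was at 135 CPM, and at 32.6 in the 213 without T or NK markers. No paired analysis was possible because the samples of a source are pooled in 1 matrix and no replicate can be told from another. At these depths, members with few UMIs in a class cannot be ordered.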
